A study of Homo sapiens with 4 samples.

Results

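Regions favoured in full medium are taken here as places in the genome where ATF3 peaks were listed in both full-medium libraries and in at most 1 of the 2 cystine-restricted libraries of SW480 cells, an established human colorectal adenocarcinoma line. Peaks of the 4 lists on chromosomes 1 to 22 and X were merged where they shared at least 1 bp, and the rule took 790 of the 44826 merged regions, or 1.76%. Of the 11121 regions with a peak in both full-medium lists they were 7.1%, and the other 10331 had a peak in all 4 lists. The same rule turned round, with a peak in both cystine-restricted lists and in at most 1 full-medium list, took 10302 regions, which is 23% of all merged regions and 49.9% of the 20633 present in both cystine-restricted lists. The regions were chosen by the authors' listing of peaks in all 4 libraries, so their number and their strength are descriptions and carry no test.

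The cystine-restricted group was SW480 cells kept in cystine-restriction medium and the control group was the same line in full medium. Both were held for 24 h, profiled by CUT&Tag with 1 antibody against ATF3, and represented by 2 libraries. The labels name no change of genotype. They number the 2 libraries of a medium without saying whether they came from separate cultures. No library without that antibody was analysed here, and all results concern 1 cell line.

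ATF3 is a bZIP transcription factor that is low in resting cells and is induced by many stresses, among them amino acid shortage, through the integrated stress response. It binds DNA as a homodimer, for which repression has been described, or as a heterodimer with JUN proteins and other bZIP partners, at AP-1 and cyclic AMP response elements. Cystine is the oxidised form in which cultured cells take up cysteine, which limits the making of glutathione, and cells short of glutathione become prone to ferroptosis, an iron-dependent death with lipid peroxidation. In CUT&Tag the antibody brings a transposase to the bound protein, so a peak is a place where inserted tags pile up.

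Each deposited list gives, for a peak, the fold enrichment over its local background and the −log10 p and −log10 q of its summit. These per-peak values are the authors'. The summit pileup, which is the number of tags over the summit, and the local background follow from the fold and the −log10 p, and both were recovered for 100% of peaks. The lowest background in a list, its genome background, scales with sequencing depth. It stood at 1.298 tags for replicate 1 and 1.08 for replicate 2 of the cystine-restricted medium, against 1.11 and 1.32 tags for those of full medium. A height below is a summit pileup divided by the genome background of its library. The lists held 33838 and 29607 peaks under cystine restriction and 17447 and 19132 peaks in full medium.

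The 790 regions fell into 3 classes by their cystine-restricted peaks. A peak was listed in cystine-restricted replicate 1 alone at 432 of them and in replicate 2 alone at 185, and 173, or 1.56% of the regions in both full-medium lists, had no cystine-restricted peak. At most of the regions the peak of only 1 cystine-restricted library was thus missing. That library was more often replicate 2, which had the lower genome background and the shorter list of the 2. Peaks of the 790 regions made up 1.34% and 0.638% of the lists of cystine-restricted replicates 1 and 2, and 4.64% and 4.18% of the lists of full-medium replicates 1 and 2.

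The regions were low in full medium. Their median summit pileup was 13 tags in full-medium replicate 1 (interquartile range 10 to 16) and 14 tags in replicate 2 (11 to 17), against 21 and 22 tags at the regions in all 4 lists. The lowest pileup that either full-medium list holds is 7 tags. The median −log10 q of the 790 regions was 4.62 and 4.6 in full-medium replicates 1 and 2, against 9.44 and 9.64 at the regions in all 4 lists, and the median fold enrichment was 4.75 and 4.55, against 6.12 and 5.98. A −log10 q of at least 5 in both full-medium lists was found at 185 of the 790 regions (23.4%) and at 7639 of the 10331 (73.9%). At a −log10 q of at least 10 the numbers were 9 (1.14%) and 3879 (37.5%). The peaks were also narrower, with median widths of 307 and 327 bp in full-medium replicates 1 and 2, against 502 and 529 bp at the regions in all 4 lists.

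**Figure D1:**
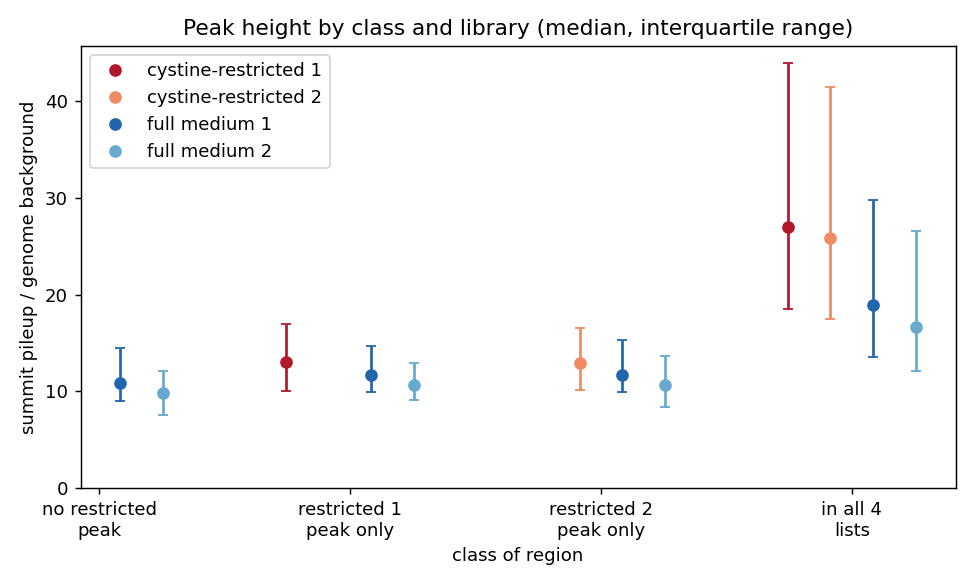
Median height (summit pileup over genome background, vertical axis, no unit) with its interquartile range in each library, for the 3 classes of the 790 regions and for the 10331 regions in all 4 lists. Where a cystine-restricted peak was listed at the 790 regions its median was 13.1 in replicate 1 and 12.9 in replicate 2, and the full-medium medians of the 3 classes lie between 9.86 and 11.7.

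Strength in full medium and membership went together along the whole range. Regions in both full-medium lists were ordered on their weaker within-list rank of −log10 p. In the weakest decile 274 of 1112 regions, or 24.6% (95% Wilson interval 22.2 to 27.3), had at most 1 cystine-restricted peak. The share was 12.9% (11.02 to 14.96) in the third decile, 4.14% (3.12 to 5.47) in the fifth and 1.08% (0.618 to 1.88) in the seventh. The ninth decile held 1 such region and the strongest decile none of 1113, with an upper limit of 0.344%. These intervals, like all Wilson intervals here, cover counting error over regions only. Of the 173 regions with no cystine-restricted peak, 83 were in the weakest decile, and 4 were in deciles 7 to 10 together.

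**Figure D2:**
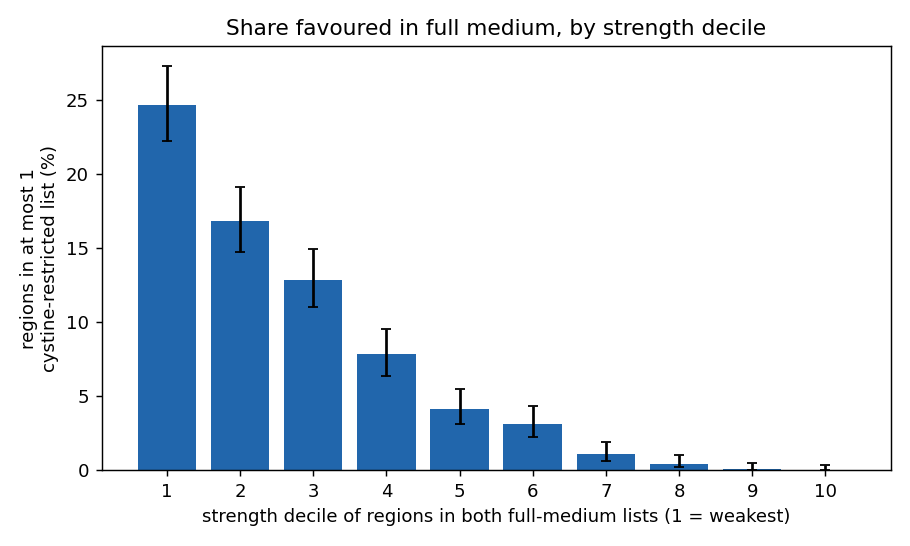
Share (%) of regions in both full-medium lists that had at most 1 cystine-restricted peak, by decile of strength in full medium, with 95% Wilson intervals over about 1112 regions a decile. The share is 24.6% in the weakest decile, 4.14% in the fifth and 0 in the strongest.

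The values just inside and just outside the rule differed between its sides. Among the 790 regions, the weaker full-medium peak had a −log10 q under 2 at 34 (4.30%), and the lowest was 1.33. Outside the rule on the full-medium side, 7090 regions had 1 full-medium peak and at most 1 cystine-restricted peak, and the median −log10 q of that only full-medium peak was 3.49, against 3.78 for the weaker full-medium peak of the 790. Outside it on the cystine-restricted side, 20 of the 10331 regions in all 4 lists (0.194%) had a weaker cystine-restricted peak with a −log10 q under 2. Over all 10331 regions the median −log10 q of the weaker cystine-restricted peak was 13.6.

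Where a cystine-restricted peak was listed, it was more often above both full-medium heights than below both. The word favoured here refers to the listing of peaks. The cystine-restricted library whose peak was missing has no height in the lists, and a listed one has a height because it passed the caller. At the 432 regions with a peak of cystine-restricted replicate 1, that peak had a median pileup of 17 tags (interquartile range 13 to 22), against 13 and 14 tags in full medium. Scaled to the genome background, the medians were 13.1 in the cystine-restricted library and 11.7 and 10.6 in the full-medium libraries. The cystine-restricted height was above both full-medium heights at 250 of the 432 regions (57.9%, 53.2 to 62.4), below both at 71 (16.4%, 13.2 to 20.2) and between them at 111. At the regions in all 4 lists these shares were 83.7% above and 4.69% below. Both cystine-restricted heights were above both full-medium heights at 72.8% of the regions in all 4 lists and below both at 2.38%. The listing of all 3 peaks was required here, so these counts are read as values only.

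The 185 regions with a peak of cystine-restricted replicate 2 had a median pileup of 14 tags (11 to 18) in that library, against 13 and 14 tags in full medium, and the median heights were 12.9 against 11.7 and 10.6. The cystine-restricted height was above both full-medium heights at 90 regions (48.6%, 41.5 to 55.8) and below both at 42 (22.7%, 17.3 to 29.3), beside 79.2% and 6.80% at the regions in all 4 lists. The median log2 ratio of the cystine-restricted height to the mean full-medium height was 0.19 for replicate 1 (interquartile range −0.07 to 0.49) and 0.15 for replicate 2 (−0.10 to 0.40), against 0.57 and 0.48 at the regions in all 4 lists. By the authors' fold enrichment, which divides by the local background, the medians of the members were 0.08 and 0.02. On that scale the cystine-restricted value was above both full-medium values at 197 and 72 regions and below both at 113 and 55.

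**Figure D3:**
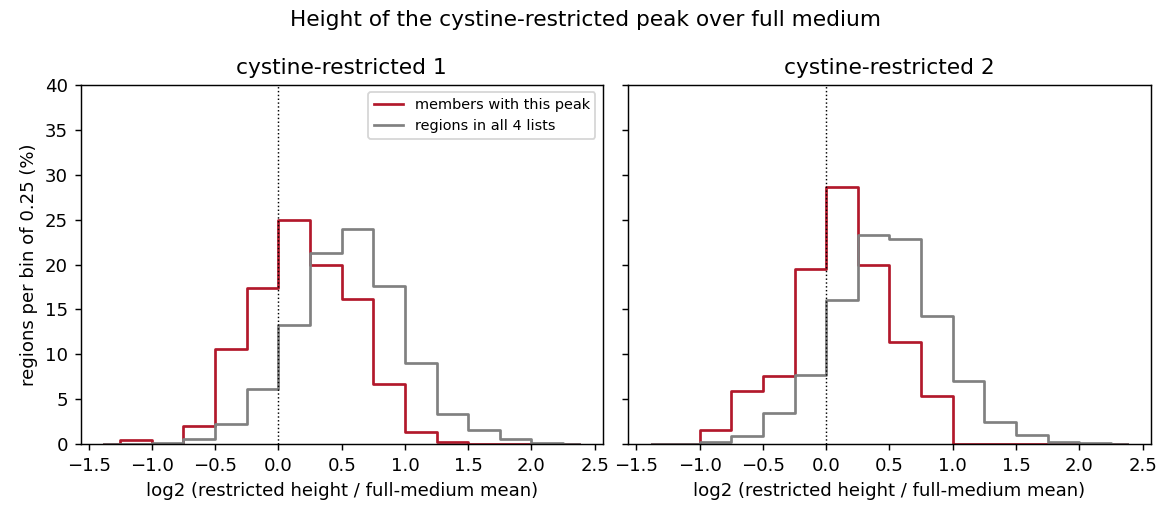
Distribution of the log2 ratio of the cystine-restricted height to the mean full-medium height (horizontal axis), as % of regions per bin of 0.25, for members with that cystine-restricted peak and for the regions in all 4 lists. Both member curves lie to the left of the grey curve, with medians of 0.19 and 0.15 on the log2 scale, and most of each lies right of 0.

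Among the 617 regions with 1 cystine-restricted peak, the log2 ratio was below −1 at 2 and above 1 at 7. The bin from 1 to 1.25 held 1.39% and 0% of the members with a peak of cystine-restricted replicates 1 and 2. At the regions in all 4 lists it held 8.99% and 7.05%. The bin from −1.25 to −1 held 0.463% and 0%, against 0.0194% and 0.0194%. A listed peak had passed the caller, which limits how low the ratio can be, so these counts are read as values only. The lowest value, −1.08, belonged to a region on chromosome 13 from 33747178 to 33747633 (hg19), with a pileup of 10 tags in cystine-restricted replicate 1, against 20 and 19 tags in full medium. The next, −1.06, was on chromosome 6 from 168052305 to 168052687, with 8 tags in cystine-restricted replicate 1, against 15 and 16 tags. Both are regions where a cystine-restricted peak was measured below each full-medium peak. The ratio was lower at regions that were stronger in full medium, with a median of 0.29 in the weakest decile (191 regions), 0.10 in the third (126) and −0.14 in the seventh (10). The deciles are set by strength in full medium, the ratio divides by the full-medium height, and a listed peak had passed the caller. Part of that order is thus built in. At the regions in all 4 lists the median ratio of the mean cystine-restricted height was 0.58, 0.52 and 0.52 in the same deciles.

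The strongest regions with 1 cystine-restricted peak were named by rank in full medium. With a peak in cystine-restricted replicate 1, the first was on chromosome 16 from 87811243 to 87811961, with 58 tags under cystine restriction, against 72 and 64 tags in full medium. Its local background was 10.96 times the genome background in the cystine-restricted library and 11.7 and 11.8 times in the full-medium libraries, and a peak of cystine-restricted replicate 2 lay 244 bp away. The second was on chromosome 10 from 72214796 to 72215393, with 20 tags against 30 and 30 tags, and the nearest peak of cystine-restricted replicate 2 was 47868 bp away. The first of these had the missing library's peak beside it, and the second did not. The others were on chromosome 21 from 43127485 to 43128186, with 35 tags against 32 and 31 tags and a peak of cystine-restricted replicate 2 at 514 bp, on chromosome 13 (given above) and on chromosome 1 from 235093196 to 235093992, with 25 tags against 24 and 27 tags. Scaled to the genome background, the log2 ratio of the cystine-restricted height to the full-medium mean was −0.35, −0.69, 0.04, −1.08 and −0.13 at these 5 regions in the order given.

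With a peak in cystine-restricted replicate 2, the strongest region was 193 bp wide and lay on chromosome 2 from 92306669 to 92306861, with 36 tags under cystine restriction, against 55 and 71 tags in full medium. Its local background was 7.85 times the genome background in that cystine-restricted library and 11.3 and 12.6 times in the full-medium libraries. A peak of cystine-restricted replicate 1 lay 248 bp away. The region was 18.8 kb from the longest stretch of chromosome 2 without a peak in any list. The next was on chromosome 3 from 37516850 to 37517402, with 11 tags against 21 and 22 tags. After it came chromosome 4 from 2802581 to 2803116, with 22 tags against 26 and 33 tags, and by chromosome 10 from 103055074 to 103055620, with 19 tags against 23 and 19 tags. The last was on chromosome 2 from 71205128 to 71205704, with 27 tags against 25 and 27 tags, and a peak of cystine-restricted replicate 1 lay 330 bp away. Of these 5 regions, the cystine-restricted pileup was below both full-medium pileups at the first 3. At the region on chromosome 10 it equalled the lower one and at the last it equalled the higher one. After scaling to the genome background, their log2 ratios were −0.64, −0.81, −0.26, −0.01 and 0.21 in the order given.

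The 173 regions with no cystine-restricted peak were the lowest class. Their median pileup was 12 tags in full-medium replicate 1 and 13 tags in replicate 2, with highest values of 74 and 65 tags. The median −log10 q was 4.12 and 4.01, and both full-medium values reached 5 at 31 of them and 10 at 2. An unlisted peak does not mean that no tags were there. The pileup that a peak would have needed was therefore worked out for each cystine-restricted library, as the smallest whole number whose Poisson −log10 p reaches the lowest one in that list (3.57 and 3.66), at the mean local background of the full-medium libraries scaled to that library's genome background. Of the listed cystine-restricted peaks at the 617 other members, 432 of 432 in replicate 1 and 181 of 185 in replicate 2 were at or above that pileup.

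At the 173 regions the median pileup needed was 8 tags in each cystine-restricted library. The full-medium height brought to the same depths had medians of 13.3 and 11.1 tags, which is 1.52 and 1.40 times the pileup needed, taken as the median over regions. It was above the pileup needed in both libraries at 172 of the 173 regions, at least 1.5 times it in both at 60 and at least 2 times it in both at 11. At the regions in all 4 lists the corresponding medians were 2.21 and 2.01 times. The largest multiples, 3.82 and 3.64, were those of the strongest region of the class. The regions were selected on passing the full-medium lists, whose lowest −log10 p, 3.88 and 3.83, was above that of the cystine-restricted lists, so a full-medium height above the pileup needed is nearly fixed by the choice and only the size of the multiple describes the regions. The measure assumes the full-medium local background and leaves out the caller's minimum width of 150 bp, the narrowest peak in each list.

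The strongest region with no cystine-restricted peak was on chromosome 2 from 62633576 to 62633754, where 8 and 7 tags would have been needed in cystine-restricted replicates 1 and 2, against 21 and 37 tags measured in the full-medium libraries. Its peaks were 150 and 179 bp wide, close to the narrowest that the lists hold, and their summits were 2 bp apart. The fourth, on chromosome 5 from 159301498 to 159301648, was of the same narrow kind, with 20 and 21 tags in full medium and widths of 151 and 150 bp. Merged regions under 200 bp were 15 of the 173 (8.67%, 5.32 to 13.8), 10 of the 617 with 1 cystine-restricted peak (1.62%) and 17 of the 10331 in all 4 lists (0.165%). Merged widths can only grow as more lists are joined, so part of that order is built in.

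The second region, on chromosome 20 from 48809360 to 48809790, had 74 and 65 tags in full medium and stood in a high local background. The nearest cystine-restricted peaks, 282 and 297 bp away, had backgrounds of 15.2 and 14.3 times the genome background, against 15.7 and 14.6 times at the region itself in full medium. The value of cystine-restricted replicate 1 lies between the 2 full-medium values, and that of replicate 2 is below both. A pileup of 37 and 32 tags would have been needed in cystine-restricted replicates 1 and 2. It was the only one of the 10 strongest with a cystine-restricted peak within 1000 bp.

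The other 7 of the 10 strongest had pileups between 14 and 29 tags. They were on chromosome 19 from 3929810 to 3930281, with 18 and 17 tags, and on chromosome 7 from 103063899 to 103064530, with 21 and 29 tags. On chromosome 16, from 18950943 to 18951447, there were 15 and 15 tags. On chromosome 3 there were 2, with 16 and 21 tags from 64185848 to 64186415 and with 19 and 21 tags from 37949005 to 37949554. The region on chromosome 20 from 34314763 to 34315309 had 21 and 20 tags, and that on chromosome 10 from 39136514 to 39136943 had 14 and 15 tags. In each of the 10 the full-medium height was at least 1.79 times the pileup needed in either cystine-restricted library, and in 8 it was at least 2 times in both. The 2 full-medium summits lay within 50 bp of each other in 9 of the 10, and 140 bp apart in the region on chromosome 10. The genes and sequences at these positions were not analysed here, as no genome or annotation of this build was used.

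**Figure D4:**
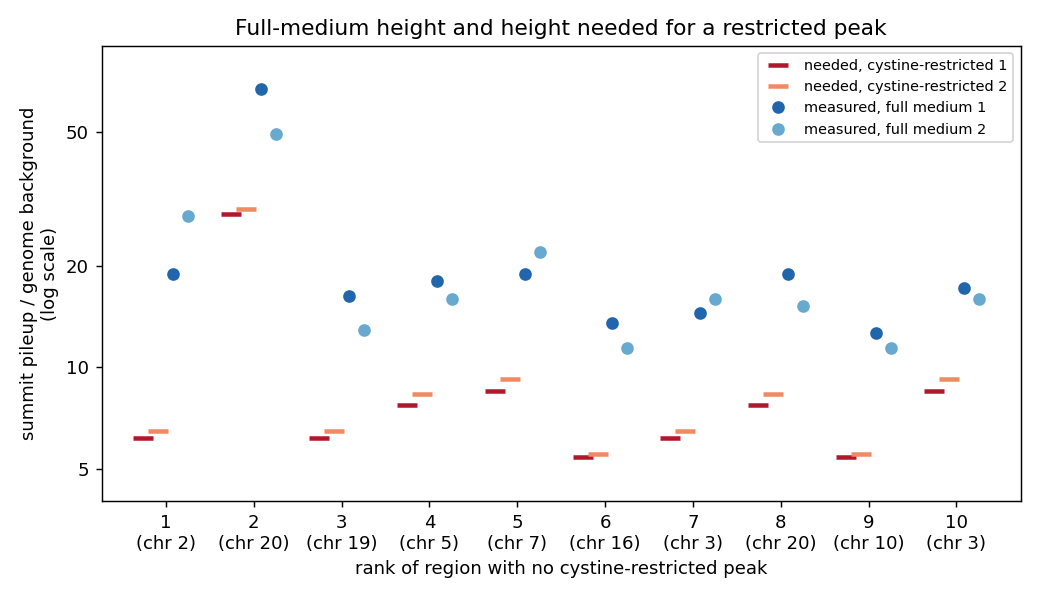
The 10 strongest regions with no cystine-restricted peak, in order of rank. Bars mark the height that a peak would have needed in each cystine-restricted library and points the height measured in each full-medium library (summit pileup over genome background, log scale). Each point lies above both bars of its region, which the choice by strength in full medium largely fixes. At the first region, 8 and 7 tags would have been needed, against 21 and 37 tags measured.

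Cystine-restricted peaks lay close to some regions of the class. The distance to the nearest other cystine-restricted peak was not taken for the regions in all 4 lists. Whether the shares below are higher than elsewhere was thus not tested. Of the 173 regions, 20 (11.6%) had a peak of either cystine-restricted library within 200 bp, 45 (26.0%) within 1000 bp and 101 (58.4%) within 10000 bp, with a median distance of 7304 bp. Where the peak of 1 library was missing, it had a neighbour of that library within 1000 bp at 75 of 432 regions (17.4%) for replicate 2 and at 37 of 185 (20%) for replicate 1. These neighbours also show the local background under cystine restriction. Only regions with such a neighbour within 1000 bp are covered, and the value is taken at the neighbouring peak. Relative to the genome background and to the mean of full medium, it was 1.15 times as high beside 40 of the 173 regions in replicate 1 (33 above 1). In replicate 2 it was 1.14 times as high beside 28 of them (21 above 1). Beside the regions missing 1 peak it was 1.24 times for replicate 1 (37 regions) and 1.08 times for replicate 2 (75 regions). At the listed peak itself, the cystine-restricted background was 1.10 and 1.03 times that of full medium at the members with a peak in replicates 1 and 2, against 1.34 and 1.25 times at the regions in all 4 lists. A higher local background raises the pileup needed, and its part in the missing peaks was not tested.

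The log2 ratio of the height in full-medium replicate 1 to that in replicate 2 was compared between classes. Its interquartile range was −0.07 to 0.40 at the 790 regions and −0.07 to 0.39 at the regions in all 4 lists. The median absolute log2 ratio was 0.25 in both. That is the value of any region with equal pileups in the 2 libraries, so it does not measure the spread. The position of the summit, which the rule did not use, was less exact over the 790 regions. The 2 full-medium summits were a median of 60 bp apart, against 38 bp at the regions in all 4 lists, and within 50 bp of each other at 367 of 790 regions (46.5%, 43.0 to 49.9), against 55.2% (54.3 to 56.2). For the 173 regions with no cystine-restricted peak the median was 52 bp and the share 49.1% (41.8 to 56.5). Within 150 bp the shares were 66.2% at the 790 regions, 71.1% at the 173 and 70.6% at the regions in all 4 lists. Where a cystine-restricted peak was listed, its summit lay a median of 54 and 56 bp from the 2 full-medium summits in replicate 1 and 50 and 52 bp in replicate 2, against 30 to 34 bp at the regions in all 4 lists. How these distances relate to pileup was not tested.

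The regions were spread over the genome. The median distance to the nearest other member was 527997 bp, and 20 of the 790 (2.53%) had another within 10000 bp. These values depend on the number of regions, and no set of equal size was compared. The nearest region in all 4 lists was a median of 31144.5 bp away, and within 10000 bp for 197 members (24.9%, 22.05 to 28.1). Regions in all 4 lists had another of their kind at a median of 30445 bp, and within 10000 bp for 24.8% (24.0 to 25.7). A local background of at least 5 times the genome background was found at 41 members (5.19%) and at 1225 of the regions in all 4 lists (11.9%).

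Each of the 23 chromosomes held members. Their share of the regions in both full-medium lists was lowest on chromosome 8, with 20 of 386, or 5.18% (3.38 to 7.87), and highest on chromosome 22, with 24 of 218, or 11.01% (7.51 to 15.9). The interval of chromosome 22 was the only one that did not include the 7.1% of all chromosomes, among 23 looked at. The 173 regions with no cystine-restricted peak were 1.56% of the regions in both full-medium lists over all chromosomes. They numbered between 2 on chromosome 18 (of 160 regions in both full-medium lists) and 18 on chromosome 3 (of 715). Chromosome 22 had 10 of its 218, and chromosome 1 had 4 of its 921. Differences between chromosomes in this share were not tested. On chromosome 21, which carries CBS, the transsulfuration gene named in the title of the series, there were 10 members among 183 regions (5.46%, 2.99 to 9.77), 3 of them with no cystine-restricted peak. Whether any of these belongs to CBS was not analysed here.

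**Figure D5:**
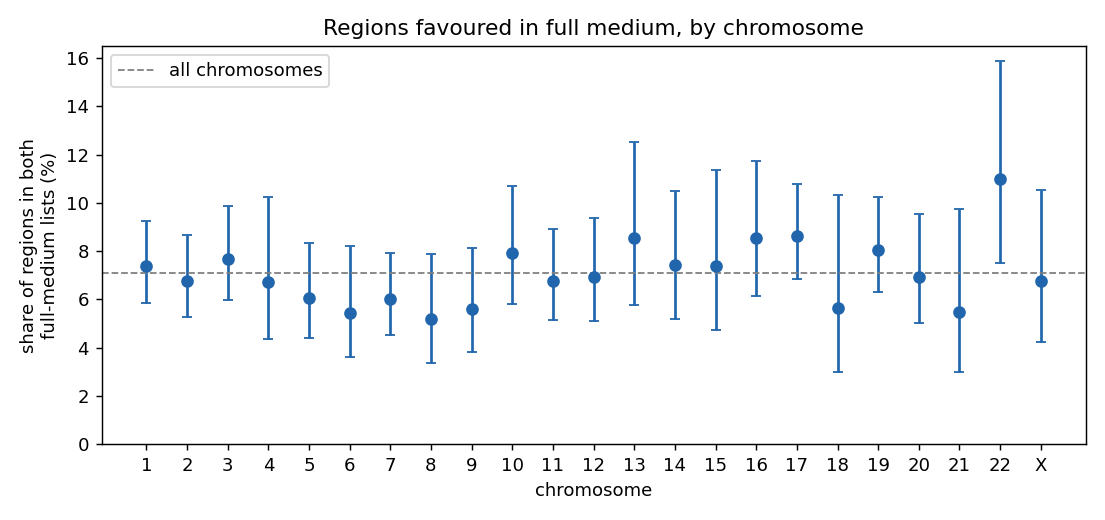
Share (%) of regions in both full-medium lists that had at most 1 cystine-restricted peak on each chromosome, with 95% Wilson intervals over regions, and the share over all chromosomes, 7.1%, as a dashed line. The shares run between 5.18% on chromosome 8 and 11.01% on chromosome 22.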

How the data were processed

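The submitters' processing notes name MACS2 2.2.7.1, BWA 0.7.17, fastp 0.19.7 and bcl2fastq 2.17, and the genome build hg19. No source used here gives the caller's options. The deposited lists, 1 per library, give each peak's fold enrichment (a ratio), −log10 p and −log10 q, and a score of 10 times the −log10 q that was not used further. From the deposited fold, (pileup + 1)/(background + 1), and the Poisson −log10 p, whole-number pileups were recovered, matching within 0.1%. The genome background stands in for depth, and read counts are unknown. The recovery, merging and rule were checked on simulated data. With 2 libraries against 2, a two-sided exact permutation test cannot go below 0.33, so none was run. Regions were named by rank: the 10 strongest with no cystine-restricted peak and the 5 strongest for each single cystine-restricted list. The members, lists and rules were chosen with earlier results of these data known. Python 3.11.15, numpy 2.4.6, pandas 2.3.3, scipy 1.17.1, statsmodels 0.14.6 and matplotlib 3.10.9 were used.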

Additional observations from a re-analysis of the deposited data

Results flagged for a closer look

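Outside chromosomes 1 to 22 and X, in data that the comparisons above do not use, 17 regions on chromosome Y, unplaced sequence or alternate haplotypes met the same rule. They were 8.72% of the 195 regions with a peak in both full-medium lists there, beside 7.1% on the other chromosomes, and this difference was not tested.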

How the results depend on the processing

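The number of regions with both full-medium peaks and at most 1 cystine-restricted peak, 790 or 7.1%, depended on the definition, and so did the 173 with no cystine-restricted peak. At a −log10 q of at least 5 there were 422 and 85. With the same 17447 top peaks from each library there were 1981 (18.3%) and 752. The cystine-restricted lists then end at stronger peaks. A reciprocal overlap of at least 50%, counted over the peaks of full-medium replicate 1, gave 2560 (31.2%) and 1131, since it also separates overlapping peaks of different width. A −log10 q of at least 5 in the full-medium lists only, added after the data were seen, gave 185 (2.36%) and 31. Leaving out 1 library changes how many peaks are required. The number was then 628 without cystine-restricted replicate 1, 369 without its replicate 2, 4919 without full-medium replicate 1 and 3825 without its replicate 2, with shares of 3.32% to 27.5%, and the regions with no cystine-restricted peak numbered 369 to 2838. Within same-numbered pairs (replicate block), full-medium peaks with no cystine-restricted partner numbered 2723 and 4531, with a mean of 3627 (20.7%). The labels name no shared source for same-numbered libraries, so they were not treated as pairs. Their deviations had a correlation of 0.01 at the regions in all 4 lists, which cannot show whether they were handled together. Joining peaks within 200 bp gave 772 and 164, and without the top 1% of regions by fold there were 790 and 173. The median log2 ratio of the cystine-restricted to the full-medium height at the 617 regions with 1 cystine-restricted peak, 0.18, was 0.07 by fold enrichment, 0.21 by unscaled pileup, 0.02 at a −log10 q of at least 5 in full medium (154 regions), and 0.28 and 0.13 against full-medium replicates 2 and 1 alone. Distances to start sites, gene lists, GC content and motifs were not run, as they need a genome of this build. The causes of the changes in number, share and ratio were not tested.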

Other observations

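The longest stretch without a peak in any list was taken on each chromosome as a landmark. Within 1 Mb of it lay 11 of the 790 regions (1.39%, 95% Wilson interval 0.779 to 2.48) and 147 of the 10331 regions in all 4 lists (1.42%, 1.21 to 1.67).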
